A study of Mus musculus with 8 samples.

Results

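The effect of losing Cdx2 was compared between 2 stages of the mouse embryo, 4/5 somites and 7/8 somites. The comparison used 8 arrays of the 8 in the series, 4 per stage. On each array RNA of the posterior part of Cdx2 null mutant embryos was hybridized together with RNA of wild type embryos of the same stage, and both genotypes were of the strain C57Bl6J/CBA. RNA of 20 embryos was pooled for each genotype and stage, so the series held 4 pools. The titles read bio1 on 2 arrays of each stage and tech1 on the other 2. The 4 arrays of a stage were taken as repeated hybridizations of the same pair of pools. On 2 arrays of each stage the null pool carried Cy3 and on the other 2 it carried Cy5. The tissue lay between the boundary of the youngest somite and the point where the allantois joins the embryo. How the null allele was made is not stated by the labels.

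For each gene the log2 ratio of null over wild type was averaged over the 4 arrays of a stage, and the mean at 4/5 somites was subtracted from the mean at 7/8 somites. This stage difference is above 0 where the null pool gained relative to wild type and below 0 where it lost. A gene was called when the stage means lay at least 1.5-fold apart (0.585 on the log2 scale) and the 4 arrays of 1 stage all lay on one side of the 4 arrays of the other. Standard deviations (SD) are over the 4 arrays of a stage and are technical. With 1 pool per genotype and stage no p-value was computed, and every difference below describes these 4 pools.

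Cdx2 is a caudal-type homeobox gene whose product acts with its relatives Cdx1 and Cdx4. Cdx proteins maintain the posterior growth zone, where progenitors in the primitive streak and tail bud supply the neural tube and the somites, and they activate trunk Hox genes. Wnt and FGF signals keep these progenitors, while retinoic acid made by the somites promotes differentiation. Between the stages compared here the embryo adds somites, the node and streak regress, and the first vessels form in the posterior mesoderm.

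Of 15282 genes with a probe above background, 155 were called, which is 1.01%. The ratio was higher at 7/8 somites for 92 genes (0.602%) and lower for 63 (0.412%). Called or not, 7316 of the 15282 genes had a stage difference above 0 and 7966 had one below 0. Stage means were at least 2-fold apart for 8 genes (0.0523%), 2 higher and 6 lower. By the same fold and with 1 sign on the 4 arrays of a stage, 359 genes (2.35%) responded to loss of Cdx2 at 4/5 somites and 402 (2.63%) at 7/8 somites. Of these, 201 responded at both stages with 1 sign, and 12 of the 201 had a called stage difference. In a plot of the stage means against each other most genes lay near the diagonal. The called genes fell into 5 kinds, except for 25 that were of none of them.

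**Figure D1:**
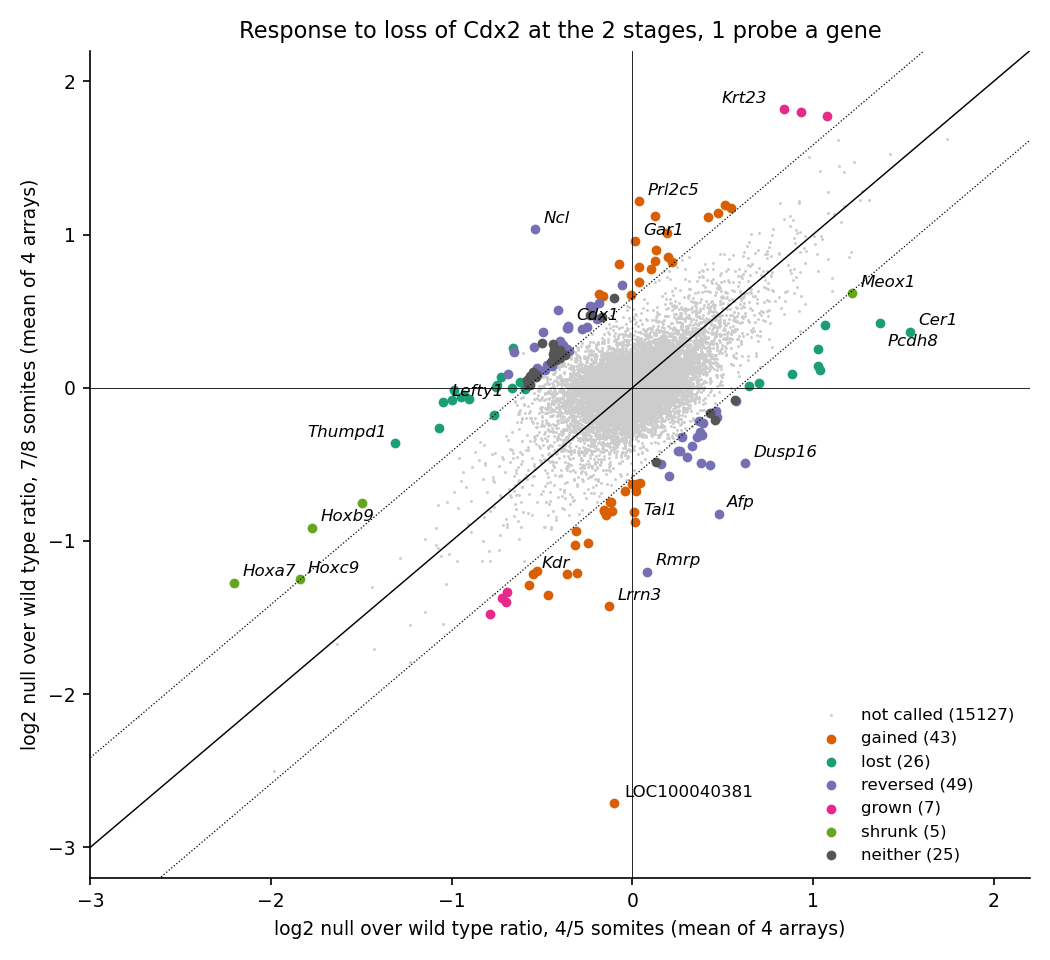
Mean log2 null over wild type ratio at 4/5 somites (x axis) and at 7/8 somites (y axis), 1 point a gene; the solid line marks equal ratios and the dotted lines a 1.5-fold stage difference. Colours give the kind of stage difference among 155 called genes; Hoxa7, Hoxb9 and Hoxc9 lie far left and above the diagonal, whereas Tal1, Kdr and Rmrp lie below it.

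A response was gained by 43 genes, which were at least 1.5-fold from equal only at 7/8 somites (19 with a higher ratio and 24 with a lower one). It was lost by 26 genes, which were so only at 4/5 somites (17 higher, 9 lower). For 49 genes the ratio had opposite signs on all 4 arrays of the 2 stages (28 higher, 21 lower), and these are called reversed. None of the 49 was at least 1.5-fold from equal at both stages, so in each reversal at least 1 of the stage means was under 1.5-fold. A response of 1 sign grew in 7 genes and shrank in 5. The last 25 called genes were of none of these kinds, as they responded at neither stage by this rule and were not reversed.

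The calls carry limits that bear on all genes below. On each array 46.5% to 58.9% of probes stood well above background in a given channel. Median SDs of single arrays were 0.12 at 4/5 and 0.11 at 7/8 somites. The stage difference, taken from means of 4 arrays, had an SD of 0.20 across genes, which is an unlike measure. Within a stage, ratios of array pairs correlated at 0.87 to 0.93 with the same dyes and at 0.49 to 0.57 with swapped dyes. Between stages the values were 0.51 to 0.63 with the same dyes and 0.29 to 0.37 with swapped dyes. Among called genes, 42 had a further probe that did not overlap the one used. That probe had the same sign in 29 of the 42, in 19 of 32 genes called higher and in 10 of 10 called lower, and it was also at least 1.5-fold apart in 9. Over all genes with such a probe the sign was shared by 3104 of 4799. In the genes called higher the median stage difference was 0.69 at the probe used and 0.089 at the further one. In those called lower it was -0.67 and -0.34. The median brightness of the further probe over both directions was 1.2 lower on the log2 scale. With arrays centred on their median in place of the loess curve, 79 genes were called (61 higher, 18 lower), 57 of them among the 155. Of the 155, 131 still had stage means 1.5-fold apart under that centring, and all 155 kept their sign. Of 70 called genes picked by the naming rule or after their values were seen, 44 were not called under that centring, among them Ncl, Afp, Nodal, Sp5, Pcdh8 and Prl4a1.

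The targeted gene was measured first. Cdx2 (chr5:148112547-148112606, build mm9) had log2 ratios of -1.34, -1.1, -1.33 and -1.15 on the 4 arrays of 4/5 somites and of -1.52, -1.56, -1.49 and -1.61 on those of 7/8 somites. It was low in the null pool on all 8 arrays, and its stage difference of -0.32 was not called. The labels do not say which part of the gene the mutant lacks, so the probe may or may not lie within it. Cdx4 had -0.94 ± 0.23 at 4/5 and -0.55 ± 0.065 at 7/8 somites, a difference of 0.39 that was not called either.

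Cdx1 was reversed. Its ratios were -0.27, -0.33, -0.42 and -0.41 at 4/5 somites and 0.39, 0.45, 0.37 and 0.41 at 7/8 somites, so every array of the early stage lay below 0 and every array of the late stage above it. The stage difference was 0.76, or 1.69-fold. Between the stages the level of Cdx1 went from early to late by -1.1 in the wild type pools and by -0.34 in the null pools, on the log2 scale of each channel. Wild type thus dropped further, to below the null level. With median centring the stage difference was 0.86, but the arrays of the stages overlapped.

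Trunk Hox genes are activated in order as the axis extends, and Cdx proteins bind their regulatory regions. Of the 14 measured genes of Hox groups 5 to 9, 4 were called, all toward a weaker deficit in the null pool, and 12 of 14 had a stage difference above 0. Over all genes 0.602% were called higher, and 7316 of 15282 had a stage difference above 0. The median ratio on single arrays ranged from -0.68 to -0.52 at 4/5 somites and from -0.40 to -0.29 at 7/8 somites, without overlap. The median stage difference was 0.23, against -0.0092 over all genes. These 4 genes make up all but 1 of the responses that shrank. With median centring none of the 4 was called, although their differences were 1.03, 0.93, 0.88 and 0.71 for Hoxa7, Hoxb9, Hoxc6 and Hoxc9.

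Hoxa7 (chr6:52165626-52165685) had the lowest ratios of the group. They were -2.46, -2.05, -2.26 and -2.05 at 4/5 somites and -1.24, -1.35, -1.16 and -1.34 at 7/8 somites. The stage difference was 0.93. Its level rose in both genotypes between the stages, by 0.78 in wild type and by 1.71 in the null pools.

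Hoxb9 read -1.93, -1.61, -1.96 and -1.59 at 4/5 and -1.08, -0.78, -1.09 and -0.70 at 7/8 somites, a stage difference of 0.86. Its other probe, which was dimmer, went the opposite way, from -1.86 to -3.06, and the mean of both probes had a stage difference of -0.17. The direction of Hoxb9 therefore rested on the probe used. Hoxc6 had ratios of -1.73, -1.21, -1.81 and -1.24 at 4/5 and -1.11, -0.51, -0.99 and -0.42 at 7/8 somites. Hoxc9 went from -1.84 ± 0.071 to -1.25 ± 0.11, and its difference of 0.59 lay just past the limit. Without array 2 or array 3 of 4/5 somites, or array 3 of 7/8 somites, Hoxc9 was no longer called (differences of 0.58, 0.58 and 0.58). Both genotypes gained Hoxc9 by more than 1 unit of log2 between the stages, wild type by 1.46 and null by 2.05.

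Other Hox groups had no called member. The 4 measured genes of groups 10 to 13 all had stage differences below 0 (median -0.28), with Hoxa10 at -0.83 and -1.13. For Hoxd13 the null pool did not reach well above background on any array, and it was at least 1.30-fold lower there at 4/5 and at least 1.65-fold lower at 7/8 somites. Among 12 genes of groups 1 to 4 the median difference was 0.13, with Hoxd4 at -1.03 and -1.28. Hoxb6 (named after its value was seen) lay just under the limit, with a difference of 0.57, but a much dimmer probe gave -0.064.

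**Figure D2:**
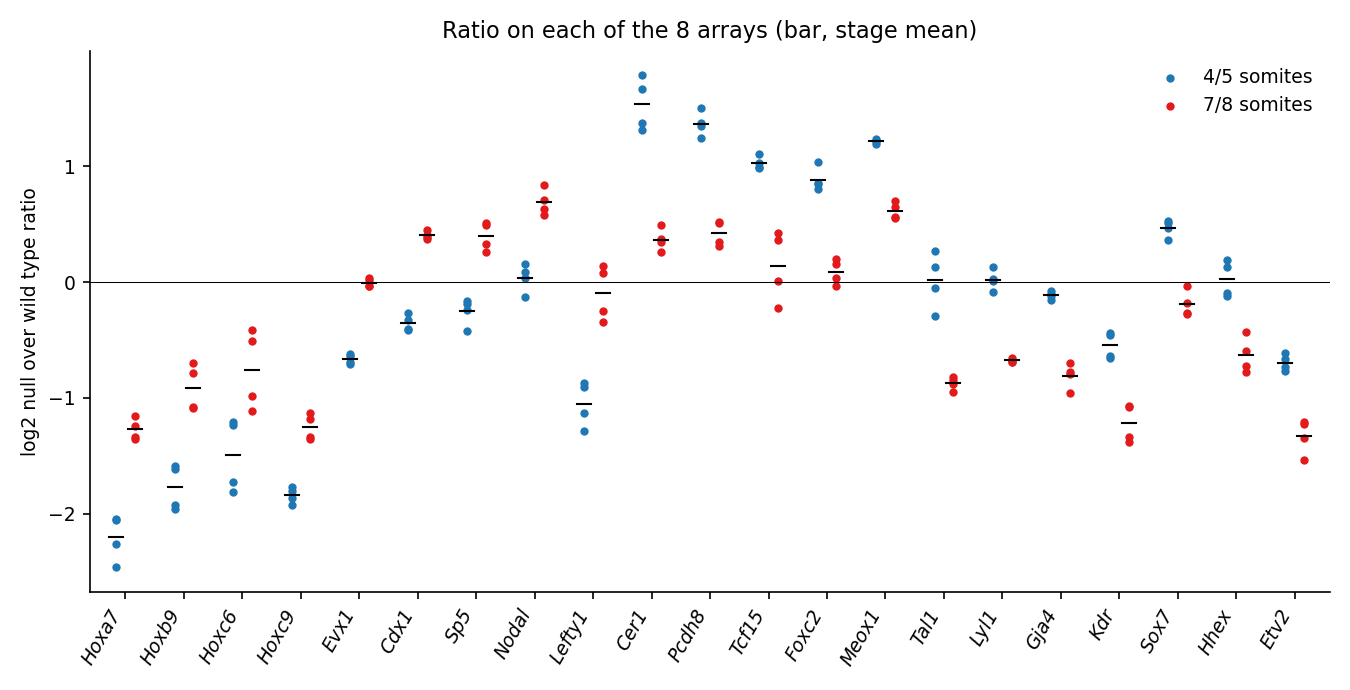
Log2 null over wild type ratio (y axis) on each of the 8 arrays for 21 called genes (x axis), blue for 4/5 and red for 7/8 somites, with a bar at each stage mean. The red points lie above the blue for the Hox genes, Evx1, Cdx1, Sp5, Nodal and Lefty1, and below them from Cer1 to Etv2. The calling rule requires that the stages do not overlap, which held for 2864 of all 15282 genes.

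Axial progenitor genes mark the cells that build the trunk from the tail end. Of 18 measured, 2 were called higher at 7/8 somites and none lower, against 0.602% and 0.412% of all genes. A stage difference above 0 was found in 14, against 7316 of all 15282 genes. The list median was 0.25, with ratios of -0.25 at 4/5 and 0.015 at 7/8 somites. Evx1, a homeobox gene of the primitive streak, had ratios of -0.64, -0.71, -0.69 and -0.62 at 4/5 somites and 0.033, 0.022, -0.038 and -0.036 at 7/8 somites. The late arrays lay close to 0, and the difference was 0.66 (0.77 with median centring, which ended the call). Sp5, a Wnt target gene, read -0.42, -0.16, -0.24 and -0.19 and then 0.49, 0.33, 0.51 and 0.26. It was below 0 on every early array and above 0 on every late one.

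Several progenitor and presomitic genes were not called and are named here after their values were seen. Among the 21 alternative settings Fgf8 was called in 7, and T, Wnt3a and Tbx6 in 0. T, the brachyury gene, had a stage difference of 0.55 and Fgf8, the growth factor of the tail bud, of 0.58. For Wnt3a it was 0.42 and for the presomitic gene Tbx6 0.53. All 4 arrays of Tbx6 changed sign, from -0.43 ± 0.073 to 0.10 ± 0.076. T, Tbx6 and Cdx4, which mark the posterior growth zone that was dissected, were well above background in both genotypes on all 8 arrays.

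Promoters were looked up for 8 called axial genes (the 4 Hox genes, Evx1, Cdx1, Sp5 and Fgf15), and the RefSeq table (GRCm38.p6) held 3 of them. Evx1 was the only one of the 3 with the letters TTTATNG, the core of sites bound by Cdx proteins. The letters were searched on both strands and occurred in 10.9% of all 32851 promoters of 300 bases. That share counts each promoter, whereas a named gene counted if any of its promoters matched, so the measures are unlike. The Evx1 promoter (chr6:52313248-52313547, plus strand, 250 bases before to 50 after the start) is shown with its match in capitals, which reads on the minus strand and starts 230 bases before the start site.
Evx1: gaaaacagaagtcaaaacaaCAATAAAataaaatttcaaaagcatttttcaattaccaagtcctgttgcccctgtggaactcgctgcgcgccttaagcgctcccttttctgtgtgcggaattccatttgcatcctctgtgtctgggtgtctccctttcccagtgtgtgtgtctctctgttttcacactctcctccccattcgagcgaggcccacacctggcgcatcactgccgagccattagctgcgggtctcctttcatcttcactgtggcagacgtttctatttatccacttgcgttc

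Signalling genes of the growth zone moved in both directions. Fgf15, an FGF ligand expressed in caudal tissue, was reversed, from -0.20 ± 0.10 to 0.45 ± 0.16. Etv4, an ETS factor induced by FGF signals, had a deficit that shrank to under 1.5-fold. It read -0.60, -1.40, -0.72 and -1.55 at 4/5 somites, where the dye orders differed widely, and -0.14, -0.35, -0.091 and -0.47 at 7/8 somites. Etv4 was not called on the arrays with Cy3 on the null pool alone (difference of 0.55) or with uneven local backgrounds kept. Msx1, a homeobox target of BMP signals, went from -0.69 ± 0.039 to 0.09 ± 0.043, but a dimmer probe gave a difference of 0.16. Each of these 3 was the only call of its list, out of 12 FGF ligands and receptors, 13 FGF response genes and 18 BMP pathway genes.

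Other signalling genes went toward a deficit. Dusp16, a phosphatase that acts on MAP kinases, had ratios of 0.60, 0.57, 0.58 and 0.75 at 4/5 somites and -0.58, -0.44, -0.62 and -0.34 at 7/8 somites. Its difference of -1.12 was kept as a call in all 21 alternative settings. Dact2, a modulator of Wnt and TGF-beta signals, was reversed from 0.43 ± 0.16 to -0.51 ± 0.16, with a difference of -0.069 at its dimmer probe. Lrp5, a Wnt co-receptor, went from -0.15 ± 0.12 to -0.83 ± 0.084. Among 25 Wnt ligands and receptors Lrp5 was the only call, and of 25 Wnt targets and modulators Sp5 and Dact2 were called.

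Nodal is a TGF-beta family ligand of the node and streak, and Lefty1 and Cer1 are its secreted antagonists. All 3 were called, out of 13 measured genes of the pathway, against 1.01% of all genes. Nodal and Lefty1 were higher and Cer1 was lower. Of the 13, 8 had a stage difference above 0 and 5 below, against 7316 above 0 of all 15282 genes. The list median was 0.12. Nodal read 0.16, -0.13, 0.09 and 0.037 at 4/5 somites and 0.58, 0.84, 0.71 and 0.63 at 7/8 somites. Its level dropped in both genotypes between the stages, by more in wild type (-1.46) than in null (-0.81). Lefty1 had ratios of -0.87, -1.29, -0.91 and -1.13 and then of 0.14, -0.34, 0.083 and -0.25. It was well above background in each genotype on all 4 early arrays and on only 1 late array, so the late ratio compares signals near background.

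Cer1 showed the strongest loss of an excess. Its ratios were 1.32, 1.79, 1.37 and 1.67 at 4/5 somites and 0.35, 0.49, 0.26 and 0.37 at 7/8 somites, and the difference was -1.17. Wild type was well above background on 2 of the 4 late arrays. The null level fell by 1.89 on the log2 scale and the wild type level by 0.72. With uneven local backgrounds kept, Cer1 and Lefty1 were not called (differences of -0.89 and 0.72).

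Some somite genes had an excess in the null pool at 4/5 somites that was smaller at 7/8 somites. Of 11 measured, 3 were called, all lower, against 0.412% of all genes called lower. Stage differences were below 0 in 7 of the 11 and above 0 in 4, with a median of -0.14. Over all genes 7966 of 15282 lay below 0, so the count of signs alone says little about somite genes. The median ratio on single arrays went from a range of 0.80 to 0.88 to one of 0.16 to 0.48. Tcf15, the basic helix-loop-helix factor of epithelial somites, had ratios of 0.99, 0.99, 1.03 and 1.11 at 4/5 somites and 0.42, -0.22, 0.36 and 0.0068 at 7/8 somites. Foxc2, a forkhead factor of paraxial mesoderm, read 0.80, 0.85, 0.86 and 1.04 and then 0.036, 0.16, -0.036 and 0.20. Meox1, a homeobox gene of somites, went from 1.22 ± 0.019 to 0.62 ± 0.069, and its dimmer probe gave a difference of -0.25. Meox1 lost its call in 6 of 21 settings. With median centring none of the 3 was called, at differences of -0.77, -0.69 and -0.50 for Tcf15, Foxc2 and Meox1.

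The excess was not lost across all somite genes. Aldh1a2, which encodes the enzyme that makes retinoic acid in somites, stayed high, at 0.92 and 1.21. Col2a1, the cartilage collagen gene (named after its value was seen), went up from 0.98 to 1.5 without a call. Among 18 presomitic and nascent mesoderm genes the calls were split, with 2 higher and 3 lower, against 0.602% and 0.412% of all genes. Evx1 and Mixl1 were the higher ones. Mixl1, a homeobox gene of the streak that falls outside the naming rule, went from -0.48 ± 0.047 to 0.12 ± 0.082. Cer1, Foxc2 and Pcdh8 were the lower ones. Pcdh8, a protocadherin of newly forming somites, had ratios of 1.51, 1.25, 1.37 and 1.35 at 4/5 somites and 0.35, 0.51, 0.31 and 0.52 at 7/8 somites. Here the null level moved by -0.78 and the wild type level by 0.17.

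The endothelial genes that were called went toward a deficit in the null pool. Of 23 endothelial genes measured, 5 were called lower at 7/8 somites and none higher, against 0.412% of all genes called lower. A stage difference below 0 was found in 19, against 7966 of all 15282 genes. The median ratio of the 23 endothelial genes ranged over arrays from -0.06 to 0.015 at 4/5 somites and from -0.27 to -0.13 at 7/8 somites. The median stage difference was -0.23. In such tissue samples fewer cells of a type and less RNA per cell cannot be told apart.

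Tal1, the basic helix-loop-helix factor of blood and endothelial precursors (chr4:114744223-114744283, mm9), had ratios of -0.29, 0.13, -0.05 and 0.27 at 4/5 somites and -0.88, -0.82, -0.95 and -0.85 at 7/8 somites. The early arrays lay around 0 and the late ones close together below it. Its relative Lyl1 read -0.088, 0.024, 0.011 and 0.13 and then -0.66, -0.69, -0.67 and -0.69. Kdr, the VEGF receptor of endothelial precursors, was already low at -0.66, -0.45, -0.64 and -0.44 and lower at -1.38, -1.07, -1.34 and -1.08. Etv2, the ETS factor that starts the endothelial programme, deepened from -0.69 ± 0.068 to -1.33 ± 0.15.

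Gja4, a gap junction gene of arteries, went from -0.11 ± 0.032 to -0.81 ± 0.11. Sox7 reversed, from 0.47 ± 0.075 to -0.19 ± 0.11, and lost its call in 4 of 21 settings. Hhex, a homeobox gene of endothelium and foregut, went from 0.028 ± 0.16 to -0.63 ± 0.16. In these 7 genes the wild type level rose between the stages by 0.50 to 0.91, while the null level moved by -0.24 to 0.22. With median centring none of the 7 was called, since arrays of the stages overlapped or the size fell short. Their differences were then -0.53 to -0.83.

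Other endothelial genes were not called, including 3 that were picked once their values were known. The stage difference was -0.29 for Cdh5, the endothelial cadherin, 0.12 for the VEGF receptor gene Flt1 and 0.068 for the angiopoietin receptor gene Tek. Among 10 primitive erythroid and blood genes Lyl1 was the only call, and the median difference was -0.028, with 6 below 0 and 4 above. Tal2, a further relative of Tal1, was counted among the lost responses. Wild type was not well above background for it on any array, so the null pool was at least 2.04-fold higher at 4/5 and at least 1.14-fold higher at 7/8 somites, and these bounds do not show whether the excess became smaller.

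The promoters of 3 of these genes are shown for the motifs that vessel and blood factors bind, as RefSeq gives them on GRCm38.p6. Promoters were present for 6 of the 7 genes, which are all but Sox7. The letters CCGGAA, the core bound by ETS factors such as Etv2, were found on either strand in Lyl1 (2 matches) and Kdr (1 match), against 14.9% of all promoters. The letters AGATAA, bound by GATA factors, were found in Tal1 (1 match), against 11.2% of all promoters. The letters TTTATNG were in none of the 6. Here too the percentages count each promoter, whereas a gene counted if any of its promoters matched. Capitals mark the matches, and the windows are chr4:115056176-115056475 on the plus strand, chr8:84701207-84701506 on the plus strand and chr5:75978406-75978705 on the minus strand.
Tal1: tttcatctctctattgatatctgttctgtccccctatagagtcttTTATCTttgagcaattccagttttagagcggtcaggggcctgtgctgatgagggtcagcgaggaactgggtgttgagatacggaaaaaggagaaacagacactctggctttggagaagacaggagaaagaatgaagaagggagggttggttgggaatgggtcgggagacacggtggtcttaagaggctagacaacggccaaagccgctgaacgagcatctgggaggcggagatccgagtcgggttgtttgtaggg
Lyl1: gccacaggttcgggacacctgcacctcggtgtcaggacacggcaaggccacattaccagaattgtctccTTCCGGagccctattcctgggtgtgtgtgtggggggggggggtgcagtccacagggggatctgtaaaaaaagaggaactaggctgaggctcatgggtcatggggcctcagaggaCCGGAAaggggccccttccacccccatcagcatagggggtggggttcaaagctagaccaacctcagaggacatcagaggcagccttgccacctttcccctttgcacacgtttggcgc
Kdr: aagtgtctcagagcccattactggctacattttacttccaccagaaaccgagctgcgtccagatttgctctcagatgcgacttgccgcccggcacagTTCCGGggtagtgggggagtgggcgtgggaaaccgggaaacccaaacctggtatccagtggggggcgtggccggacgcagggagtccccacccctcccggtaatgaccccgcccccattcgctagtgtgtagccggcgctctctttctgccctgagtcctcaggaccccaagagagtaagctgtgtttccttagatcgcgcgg

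Afp, the alpha-fetoprotein gene of visceral endoderm and yolk sac (chr5:90937781-90937840), had one of the largest reversals. The null pool was higher on all 4 arrays of 4/5 somites, at 0.41, 0.54, 0.41 and 0.55, and lower on all 4 of 7/8 somites, at -0.92, -0.74, -0.89 and -0.74. The difference of -1.30 came with a null level that moved by -1.19 and a wild type level that moved by 0.11. Afp was the only call among 21 measured genes of visceral endoderm and yolk sac, whose stage differences had a median of -0.095. Apoa1 and Apoe, apolipoprotein genes of the same tissue named after their values were seen, read 0.46 and 0.87 at 4/5 and 0.17 and 1.05 at 7/8 somites.

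Fabp1, a fatty acid binding protein gene of gut and yolk sac, had ratios of -0.20, -0.30, -0.60 and -0.35 and then of -1.34, -1.22, -1.14 and -1.17, and the null pool was well above background on 1 of the 4 late arrays. S100g, a calcium binding protein gene of the same tissues, read -0.21, 0.077, -0.09 and 0.25 and then -0.92, -0.70, -1.02 and -0.61. Cck, a gut peptide hormone gene, deepened from -0.70 ± 0.12 to -1.40 ± 0.13. With Hhex it made up the 2 calls among 24 gut endoderm genes, both lower, while the list median was 0.062. Over all genes 0.412% were called lower. The part of visceral endoderm left on the tissue in these values was not tested.

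Placental prolactin genes encode hormones of trophoblast cells, and Prl2c5 and Prl2c3 were among the largest gains of an excess. Prl2c5 read 0.065, 0.0021, 0.13 and -0.054 at 4/5 somites and 1.13, 1.42, 1.1 and 1.22 at 7/8 somites, a difference of 1.18. Prl2c3 read 0.15, 0.15, 0.16 and 0.047 and then 0.94, 1.29, 1.11 and 1.15. Both had a dimmer probe with the same direction, with differences of 0.61 and 0.76. Prl4a1 had an excess at both stages that grew from 0.94 ± 0.22 to 1.80 ± 0.11. Prl2c5 and Prl4a1 were the 2 calls among 14 trophoblast genes measured, of which 9 had a stage difference below 0, with a median of -0.087. Over all genes 0.602% were called higher. The median ratio of that list over arrays ranged from 0.20 to 0.29 at 4/5 and from 0.15 to 0.33 at 7/8 somites, which overlap, and the part of trophoblast RNA in these calls was not tested.

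Prl2c3 and Prl2c5 are near-identical genes, and RNA of one may bind the probe of the other, so their values are uncertain as separate measurements. The probes of 60 bases come from the array files, at chr13:13282998-13283933 and chr13:12883352-12884285 on mm9, and the longest run they share, of 18 bases, is in capitals.
Prl2c5: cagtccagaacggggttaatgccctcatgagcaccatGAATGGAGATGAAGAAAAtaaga
Prl2c3: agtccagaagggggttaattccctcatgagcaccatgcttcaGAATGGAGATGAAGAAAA

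Beside the prolactin gene Prl4a1, Krt23 and Lratd1 were the other excesses that grew. Krt23, a keratin gene of epithelia, had ratios of 0.71, 1.01, 0.76 and 0.88 at 4/5 and 1.90, 1.76, 1.91 and 1.7 at 7/8 somites. The null level moved by 0.16 while wild type moved by -0.81. It was the only call among 18 surface ectoderm genes and was called in all 21 alternative settings. Lratd1 went from 1.08 ± 0.16 to 1.78 ± 0.28, with wild type well above background on 3 of the 4 late arrays. On the side of deficits that grew, beside Cck and Etv2, Rab32, a small GTPase gene, went from -0.79 ± 0.18 to -1.48 ± 0.10. The keratin-associated gene Krtap17-1 was counted with them. The null pool was well above background for it on none of the early and 2 of the late arrays, so it was at least 1.64-fold lower at 4/5 somites and had a ratio of -1.37 ± 0.034 at 7/8 somites, which do not show whether its deficit grew.

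Ncl had the largest positive stage difference of all genes. It encodes nucleolin, an abundant nucleolar protein of ribosome assembly. Its ratios were -0.60, -0.45, -0.59 and -0.51 at 4/5 somites and 1.09, 0.95, 1.12 and 0.98 at 7/8 somites, a shift of 1.58 from a deficit on every early array to an excess on every late one. A second probe, which overlaps the first, gave 1.55. Probes elsewhere in the gene gave -0.03 and -0.14, with a log2 brightness of -2.36 and -7.03 relative to the probe used. The 2 overlapping probes are shown as the array files give them, at chr1:88247602-88247992 and chr1:88247953-88248012 on the minus strand of mm9, where the first spans more than its 60 bases and so crosses an intron. Their shared 40 bases are in capitals.
Ncl probe 1: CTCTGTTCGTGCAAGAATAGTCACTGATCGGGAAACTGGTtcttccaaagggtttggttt
Ncl probe 2: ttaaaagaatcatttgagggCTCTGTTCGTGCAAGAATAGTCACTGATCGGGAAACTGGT

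Gar1, a protein of the particles that modify ribosomal RNA, gained an excess, from -0.12, 0.24, -0.23 and 0.17 to 1.06, 0.86, 1.07 and 0.83. Mybbp1a, a nucleolar binding partner of Myb, went from -0.58 ± 0.14 to 0.052 ± 0.15, and without array 2 of 4/5 somites its difference was 0.58 and not called. With Ncl these were the 3 calls among 30 nucleolar genes, all higher, against 0.602% of all genes called higher. Of the 30, 21 had a stage difference above 0, against 7316 of all 15282 genes, and the median was 0.16. None of 37 ribosomal protein genes was called, and their median was 0.0051. Rcc1, the exchange factor for the GTPase Ran, gained an excess from -0.19 ± 0.28 to 0.61 ± 0.16.

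Rmrp, the RNA part of an enzyme that cleaves the ribosomal RNA precursor, went down. Its ratios were 0.10, 0.037, 0.067 and 0.12 at 4/5 somites, where they were small but above 0 on every array, and -1.38, -1.0, -1.35 and -1.08 at 7/8 somites. It is a short RNA with no coding sequence, and the 1 probe that read it (chr4:43505692-43505751, minus strand, mm9) is shown because its difference of -1.28 is among the 8 of at least 2-fold.
Rmrp: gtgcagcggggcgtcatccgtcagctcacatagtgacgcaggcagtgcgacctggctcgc

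Alpha-defensin genes, which encode antimicrobial peptides of gut Paneth cells, included 4 called genes that lost a deficit. These 4 belong to none of the lists and were picked by their stage differences. The share of the family that was called is therefore not given, and over all genes 0.602% were called higher. Defa20 read -1.06, -0.89, -1.0 and -1.0 at 4/5 somites and -0.055, 0.069, -0.10 and 0.021 at 7/8 somites. Defa31 went from -1.0 ± 0.14 to -0.081 ± 0.047, Defa3 from -0.93 ± 0.11 to -0.047 ± 0.082 and Defa5, named after its value was seen, from -0.75 ± 0.16 to 0.0029 ± 0.11. In the first 3 the wild type level moved by -0.82, -0.83 and -0.81, and the null level by 0.15, 0.085 and 0.072. The genes are near-identical copies and are read here as uncertain. Their probes are shown because they share 11 bases, in capitals, and the first 2 share 21. A dimmer second probe of Defa3 gave a difference of 0.17. A further kept probe with the 11 bases, of Defcr-rs12, read -0.40 and -0.076, a difference of 0.33 that was not called. With median centring Defa20, Defa31, Defa3 and Defa5 were not called either (differences of 1.07, 1.01, 0.99 and 0.86).
Defa20: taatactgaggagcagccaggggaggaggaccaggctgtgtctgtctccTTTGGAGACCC
Defa31: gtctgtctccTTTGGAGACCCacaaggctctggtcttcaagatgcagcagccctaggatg
Defa3: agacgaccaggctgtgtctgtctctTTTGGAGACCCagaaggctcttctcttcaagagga

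The largest stage difference of all belonged to a predicted transcript, LOC100040381, that has no symbol and is named after its value was seen. Its probe (chr13:74949019-74949077) had ratios of -0.16, -0.018, -0.19 and -0.038 at 4/5 somites and -2.64, -2.75, -2.69 and -2.77 at 7/8 somites. The difference of -2.61 came with a wild type level that moved by 1.79 and a null level that moved by -0.81. It was called in all 21 alternative settings. Lrrn3, a membrane protein gene of the nervous system, read -0.10, -0.10, -0.31 and -0.01 and then -1.52, -1.39, -1.55 and -1.25. At 4/5 somites the null pool was well above background on no array and wild type on 2, so the null pool was at least 1.03-fold lower there and the size of the stage difference, 1 of the 8 of at least 2-fold, is not set by these values. Lrrn3 was the only call among 18 neural tube genes.

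Of 31 matrix genes, 24 had a stage difference above 0, against 7316 of all 15282 genes, and their median was 0.12. Of the 31, 2 were called, both higher, against 0.602% of all genes called higher. Fn1, the fibronectin gene, went from -0.36 ± 0.31 to 0.39 ± 0.26, and its other probes gave 0.89 and 0.25. The dye orders of Fn1 differed widely at both stages. Col1a2 went from -0.55 ± 0.27 to 0.10 ± 0.21. Postn, an adhesion protein gene of the allantois, gained an excess, with ratios of 0.094, 0.086, 0.16 and 0.073 and then 0.74, 0.85, 0.81 and 0.71, but a dimmer probe gave 0.059. It was the only call among 17 allantois genes, of which 10 had a stage difference below 0 (median -0.051). Foxf2, a forkhead gene of lateral mesoderm, gained a deficit, from 0.045 ± 0.14 to -0.62 ± 0.22. It was the only call among 17 lateral plate and intermediate mesoderm genes, whose median stage difference was -0.025.

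Further genes gained a response. Igfbp4, which binds insulin-like growth factors, went from -0.073 ± 0.23 to 0.81 ± 0.21, with 0.42 at its dimmer probe. Epha1, an ephrin receptor gene, went from 0.13 ± 0.31 to 0.90 ± 0.11. Rian, an imprinted RNA gene and the only call among 21 imprinted genes, went from -0.16 ± 0.19 to 0.60 ± 0.10, while a second probe gave -0.18. Rprm, a cell cycle arrest gene, gained a deficit, from -0.24 ± 0.10 to -1.02 ± 0.21, with -0.51 at its second probe.

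Further genes lost or reversed a response, and all but the last of them belong to none of the lists. Thumpd1, an RNA-binding protein gene, lost most of a deficit of -1.32 ± 0.12, to -0.36 ± 0.17. Trim27, a ubiquitin ligase gene, went from -0.66 ± 0.42 to 0.26 ± 0.34, with SDs that were large and dye orders that differed widely at both stages. Tmem229b lost an excess of 1.04 ± 0.24, to 0.11 ± 0.23. Ddb1, a DNA damage binding protein, reversed from -0.41 ± 0.14 to 0.50 ± 0.15, Clk2, a splicing kinase, from -0.65 ± 0.14 to 0.23 ± 0.14, Inppl1, a lipid phosphatase, from -0.49 ± 0.11 to 0.36 ± 0.14, and Smarcd2, a chromatin remodelling subunit, from -0.54 ± 0.15 to 0.26 ± 0.23. In the other direction Spryd3 reversed from 0.38 ± 0.09 to -0.49 ± 0.026 and Septin10, a cytoskeletal GTPase gene, from 0.20 ± 0.051 to -0.57 ± 0.05. A dimmer probe of Septin10 read -0.012 and -0.22 and showed no reversal, and the mean of its probes was not called. Ccng1, a p53 target, reversed from 0.37 ± 0.18 to -0.22 ± 0.10 but lay at the limit and was called in only 10 of 21 settings. Its dimmer probe gave a difference of -0.44.

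Each stage difference is the change of the null level between the stages minus the change of the wild type level. Among the 92 genes that were higher at 7/8 somites the null level moved more in 58 and the wild type level in 34, with medians of 0.42 for null and -0.25 for wild type. Among the 63 that were lower the null level moved more in 28 and wild type in 35, with medians of -0.35 and 0.39. The 2 levels moved in opposite directions in 69 of the 92 and in 45 of the 63, against 5024 of 15282 over all genes. Genes were called on the difference of the 2 moves, which favours opposite moves. These counts are therefore no separate result about the genotypes. Of 24 responses gained downward, 18 had a larger move in wild type (median 0.62) than in the null pool (median -0.13), as in the vessel genes. Of 9 responses lost downward, 8 had a larger move in the null pool (median -0.78), Cer1, Pcdh8 and Foxc2 among them, and Tcf15 was the exception. The 4 Hox responses that shrank upward had a null level that moved more in all 4 (median 1.58, against 0.70 in wild type). These levels come from separate arrays for each stage, scaled to a common distribution, and were not compared within 1 hybridization.

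**Figure D3:**
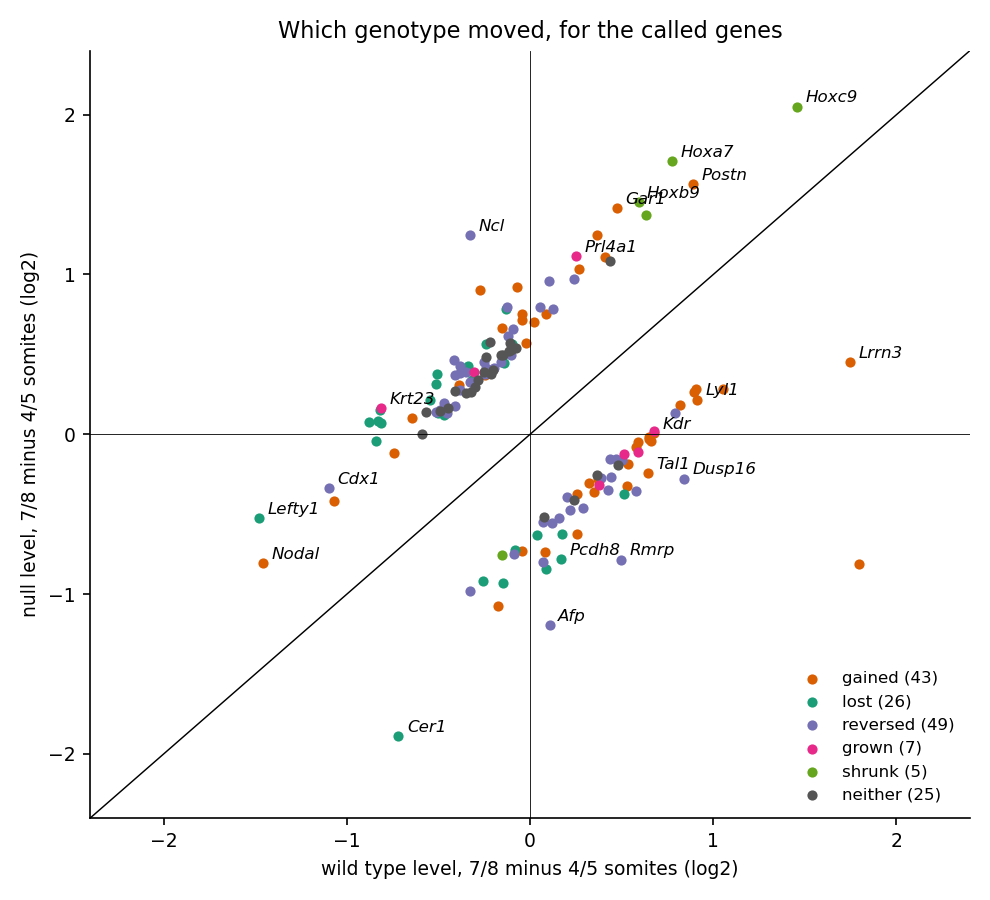
Change of the channel level from 4/5 to 7/8 somites in wild type (x axis) and null pools (y axis), log2, for the 155 called genes, coloured by kind; the line marks equal change. Hoxa7 and Hoxc9 lie high on the right above the line, Tal1, Kdr and Lyl1 lie right of 0 and below it, and Nodal and Lefty1 lie left of 0 above it.

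Of 41 gene lists, 25 held at least 1 called gene. In the plot of members by list, the ribosomal protein, replication and sterol lists had none. Among 16 genes of retinoic acid the receptor gene Rarb read 0.93 and 0.60. Among 16 genes of the segmentation clock, Mesp1 read 0.78 and 1.0 and the Wnt inhibitor gene Nkd1 0.66 and 0.81. For 15 notochord and node genes, Shh read -0.65 and -0.56, and the cilium gene Tekt1 -0.62 and -0.74. A second cilium gene, Cfap126, read -0.45 and -0.28 among 15. These responses had the same sign at both stages and stage differences under the limit.

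**Figure D4:**
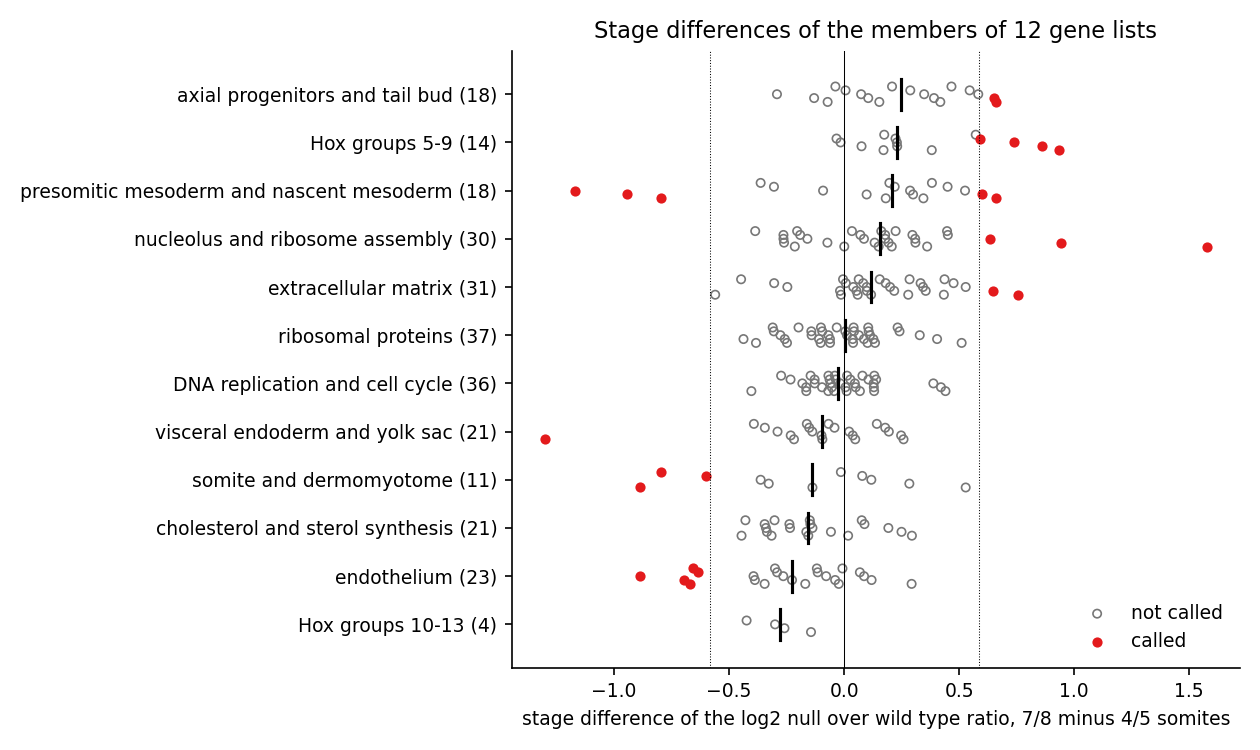
Stage difference of the log2 ratio (x axis) for the measured members of 12 gene lists (number in brackets), filled red where called, with a black bar at each list median and dotted lines at 1.5-fold. The endothelial and somite lists hold called genes only below 0 and the trunk Hox, progenitor, nucleolar and matrix lists only above 0.

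Metabolic and housekeeping lists likewise held no call. Slc7a7 and Slc7a8, which encode amino acid transporters, had excesses of 1.15 and 1.26 at 4/5 somites and of 1.45 and 1.23 at 7/8 somites. The glucose transporter gene Slc2a1 read 0.68 and 0.88, and the stress gene Ddit4 -0.63 and -0.99. Sterol synthesis genes had a median difference of -0.16 over 21 genes, with Sc5d at 0.64 and 0.21. The chaperone genes Hspa8 and Hspb8 had differences of 0.58 and 0.28, the ribosomal protein genes Rpl4 and Rps9 of 0.51 and 0.40, and the replication and mitosis genes Mcm2 and Ube2c of 0.44 and 0.39. A second probe of Hspa8 with nearly the same brightness gave -0.038.

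Germ cell genes were not called, with Dppa3 at 0.93 and 0.75 and Ifitm1 at -0.61 and -0.65. Immediate early genes, which respond to handling of tissue, were not called, with Klf2 at -0.58 and -0.82 and Atf3 at 0.63 and 0.35. The linker histone genes H1f1 and H1f4 had differences of 0.31 and -0.22. As a check of the sexes in the pools, Xist, which marks female cells, read -0.46 ± 0.14 and -0.62 ± 0.24, and the Y-linked gene Eif2s3y 0.59 ± 0.26 and 0.15 ± 0.33. Neither stage difference was called, and the part of sex in other genes was not tested.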

How the data were processed

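Messenger RNA of the 4 pools was read on 8 two-colour Agilent arrays of 45018 spots. Signal and background are intensity values deposited by the authors. The scanner software's log ratio, red over green, is on a log10 scale per the file headers. It was Agilent Feature Extraction, version 10.5.1.1 per the file headers and 9.5.3 per the submitters' processing notes. The series matrix, deposited by the authors as log10 ratios of null over wild type, equals that ratio after turning it by dye at 45018 of 45018 spots on each array (tolerance 1e-05), and each of its columns has a median of 0.

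Ratios were signed by the genotype of each channel. Signals were corrected with normexp (offset 50) after uneven local backgrounds were replaced by the array median, and normalized by loess in limma 3.58.1 (R 4.3.3). Outlier spots (0.341%) were then left out. Of 41174 probes, 21907 were kept, each well above background in either genotype on 3 or more of a stage's 4 arrays. RefSeq names on GRCm38.p6 were matched to 25263 probes by accession, 6233 by symbol and 1603 by synonym, and 8075 kept the name in the files. The brightest kept probe stood for each gene. Probe positions are those of the files (mm9). Levels per genotype are log2 values after loess and Aquantile. Where a genotype was above background on no array of a stage, the text gives a bound on the fold.

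The rule names Cdx1, Cdx2 and Cdx4, the 6 largest stage differences per kind and direction among genes with a symbol, up to 4 called members of each of 41 lists, and up to 2 members of a list with none called. Some genes that the rule names are not reported here. The comparison, members and lists were chosen with earlier results of these data known. Same-numbered arrays of the stages deviated together (r = 0.45 to 0.59 across genes, and 0.39 to 0.59 for other arrays of the same dye order). The block by title is therefore given, but these values do not tell a shared number from a shared dye order. The 21 alternative settings changed background, centring, filter, probes, calling rule or arrays. No p-value was computed. Tools beside R were Python 3.11.15, pandas 2.3.3 and numpy 2.4.6.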

Additional observations from a re-analysis of the deposited data

Results flagged for a closer look

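For 20 named genes every array of 4/5 somites lay on one side of 0 and every array of 7/8 somites on the other, and the difference between the stages was not tested. From below 0 to above it went Ncl (1.58), Ddb1 (0.92), Clk2 (0.88), Inppl1 (0.86), Smarcd2 (0.81), Msx1 (0.78), Cdx1 (0.76), Fn1 (0.76), Sp5 (0.65), Fgf15 (0.64), Mixl1 (0.60) and Tbx6 (0.53), with the stage difference of each in brackets. From above 0 to below it went Ccng1 (-0.59), Sox7 (-0.66), Septin10 (-0.78), Spryd3 (-0.87), Dact2 (-0.93), Dusp16 (-1.12), Rmrp (-1.28) and Afp (-1.30). Tbx6 is the 1 of the 20 whose stage difference was not called.

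In 6 of 228 sets of 4 arrays, 1 array lay far from the other 3. Chance marks about 1 set in 20 by this rule. At 4/5 somites these were Prl2c3, with 1 array at 0.047, Flt1, with 1 at 0.13, and Tal2, with 1 at 1.2. At 7/8 somites they were Ube2c, with 1 array at -0.069, Cck, with 1 at -1.2, and Spryd3, with 1 at -0.45.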

How the results depend on the processing

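Without background correction, 96 genes were called in place of 155, 5 at 2-fold in place of 8, and there were 26 gained (43), 31 reversed (49) and 6 grown or shrunk responses (12). Median centring gave 79 calls, with 19 gained, 12 lost (26), 28 reversed and 3 grown or shrunk. The scanner's processed signals, which are not offset and spread dim probes more, gave 450 calls (84 at 2-fold), with 107 gained, 90 lost, 149 reversed and 37 grown or shrunk, and held 141 of the 155. Keeping uneven local backgrounds left 121 calls and 14 lost responses. Of the 2 dye orders, arrays with Cy3 on the null pool gave 288 calls, 24 at 2-fold and 175 reversed, and those with Cy5 213, 14 at 2-fold, 59 lost and 109 reversed. The share of calls that were higher was 59.4%, against 77.2% with median centring and 69.0% with Cy5 on the null pool. The arrays titled bio1 gave 176 calls (with 75 reversed) and those titled tech1 gave 165. Leaving out each array in turn gave 148 to 171 calls, 8 to 11 at 2-fold, 38 to 45 gained, 25 to 30 lost, 49 to 57 reversed and 11 to 15 grown or shrunk. With arrays paired by title as a replicate block, 159 genes were called, 155 of them shared, and no called gene was lost. The other counts under the settings tried stayed within 1.5 times their value. All of the 155 that were measured kept their sign in each of the 21 settings, except Hoxb9, which turned to -0.17 with the mean of its probes. Of 70 named genes that were called, 15 were called in all settings in which they had a value, 24 in all but 1, 27 missed 2 to 4 and 4 missed 5 or more (Mixl1, Hoxc9, Ccng1 and Meox1), and 44 were not called with median centring. Without array 2 of 4/5 somites Mixl1 had a difference of 0.58, and without array 3 of 7/8 somites of 0.57. Ccng1 was at -0.56, -0.57, -0.58 and -0.56 without arrays 1 or 2 of 4/5 or arrays 2 or 3 of 7/8 somites, and Etv2 at -0.56 without array 3 of 7/8 somites. Named genes' differences moved by more than their SD in 143 of the alternative values, and list medians in 128 against 732 that did not. The list of Hox groups 10 to 13 had no gene left when both genotypes had to be above background on all 8 arrays. Except where a setting uses fewer arrays or probes, the cause of these shifts was not tested. Probes near background limit Lefty1, Lrrn3, Tal2, Fabp1, Hoxd13 and Krtap17-1.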
